A study of Mus musculus with 4 samples.

Results

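AMPA and kainate receptor subunits were measured as messenger RNA in female mouse dorsal hippocampus. The 9 genes, of 22911 named on the array, were Gria1, Gria2, Gria3 and Gria4, which encode the AMPA receptor subunits GluA1 to GluA4, and Grik1, Grik2, Grik3, Grik4 and Grik5, which encode the kainate receptor subunits GluK1 to GluK5. A probe was taken as a member when its RefSeq transcript accession belonged to 1 of these genes, and this gave 18 of the 56605 probes on the array, 8 for AMPA and 10 for kainate subunits. All 18 were well above background on all 4 arrays, so no member was lost to the filter on dim probes.

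The arrays carried samples from 2 groups, mice given a 20-fold iodine intake (replicates 2 and 3) and control mice (replicates 2 and 3). RNA was taken from both groups after a series of behavioural tests. Strain, age and the timing of the iodine intake are not given in the sources used here, and nothing in the labels states whether replicates came from different mice. The p-values therefore reflect sample-to-sample spread that may be technical in origin. The study concerned the effect of excess iodine, the substrate of thyroid hormone synthesis, on brain development.

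AMPA receptors are glutamate-gated cation channels that carry most fast excitatory transmission, and the number of them at a synapse changes with synaptic plasticity. GluA1 and GluA2 are the main subunits of hippocampal pyramidal cells, and GluA4 is known mostly from interneurons in the adult. Kainate receptors are related channels that act on both sides of the synapse and are well known at the mossy fibre synapses of CA3. GluK1 to GluK3 can form channels alone, whereas GluK4 and GluK5 need 1 of them as a partner.

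The 4 arrays lay on 1 slide, the 20-fold iodine samples at positions 3 and 4 and the control samples at positions 1 and 2, so slide position and group cannot be told apart. Between 37533 and 37921 probes per array were well above background, and Pearson's r over 38231 probes was 0.9945 between the 20-fold iodine arrays, 0.9951 between the control arrays and 0.9938 to 0.9948 across the groups (probes are not independent replicates). All 10 markers of hippocampal excitatory neurons that were looked up were detected, among them the granule cell gene Prox1 (log2 signals of 8.52 and 8.22 in 20-fold iodine and 8.06 and 8.39 in control) and the CA1 gene Wfs1 (10.64 and 10.72 in 20-fold iodine, 10.88 and 10.70 in control). Choroid plexus genes differed widely within a group. Ttr, their main transcript, had log2 signals of 12.86 and 15.23 in 20-fold iodine and 14.49 and 14.31 in control. The thalamic gene Tcf7l2 stood at 6.58 and 7.89 in 20-fold iodine and 6.80 and 6.71 in control, so replicate 3 of the 20-fold iodine group was high in both.

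Values below are log2 processed signals after each array's 75th percentile was subtracted and the mean of the percentiles added back, given for replicate 2 and then replicate 3 of a group. Differences are 20-fold iodine minus control on the log2 scale with the standard error (SE) or 95% confidence interval of a limma fit over all 38231 kept probes. Probes differ in how strongly they bind and label, so levels of different probes are not set against each other. The RNA came from bulk tissue, in which fewer cells of a type and less RNA per cell cannot be told apart.

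No subunit probe passed the adjusted threshold of 0.05. By limma 0 of 18 member probes passed, against 0 of all 38231 probes (0%), and the smallest adjusted p among the members was 0.518. At an unadjusted p under 0.05 the count was 1 of 18, against 9.03% of all probes. The groups' arrays did not overlap in 4 of 18 member probes, 3 higher and 1 lower in 20-fold iodine, while among all probes 41.6% did not overlap, 23.2% on the higher and 18.4% on the lower side. With 1 array left out, which leaves 3 values to separate, the count was 12 without 20-fold iodine replicate 2, 13 without its replicate 3, 9 without control replicate 2 and 10 without control replicate 3, against 68.9% to 73.1% of all probes. The median difference of the 18 probes was 0.02, with 10 higher and 8 lower, and that of all probes was 0.01. Of all probes 52.4% were higher in 20-fold iodine, and 62.9% with normexp background correction, where 11 of the 18 members were higher. With scaling to the median of detected probes the share was 45.9% and the members' split turned, to 8 higher and 10 lower with a median of -0.01. Without 20-fold iodine replicate 2 the split was 6 higher and 12 lower, with a median of -0.03. The median size of a difference, whatever its sign, was 0.08 for the members and 0.11 for all probes.

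**Figure D1:**
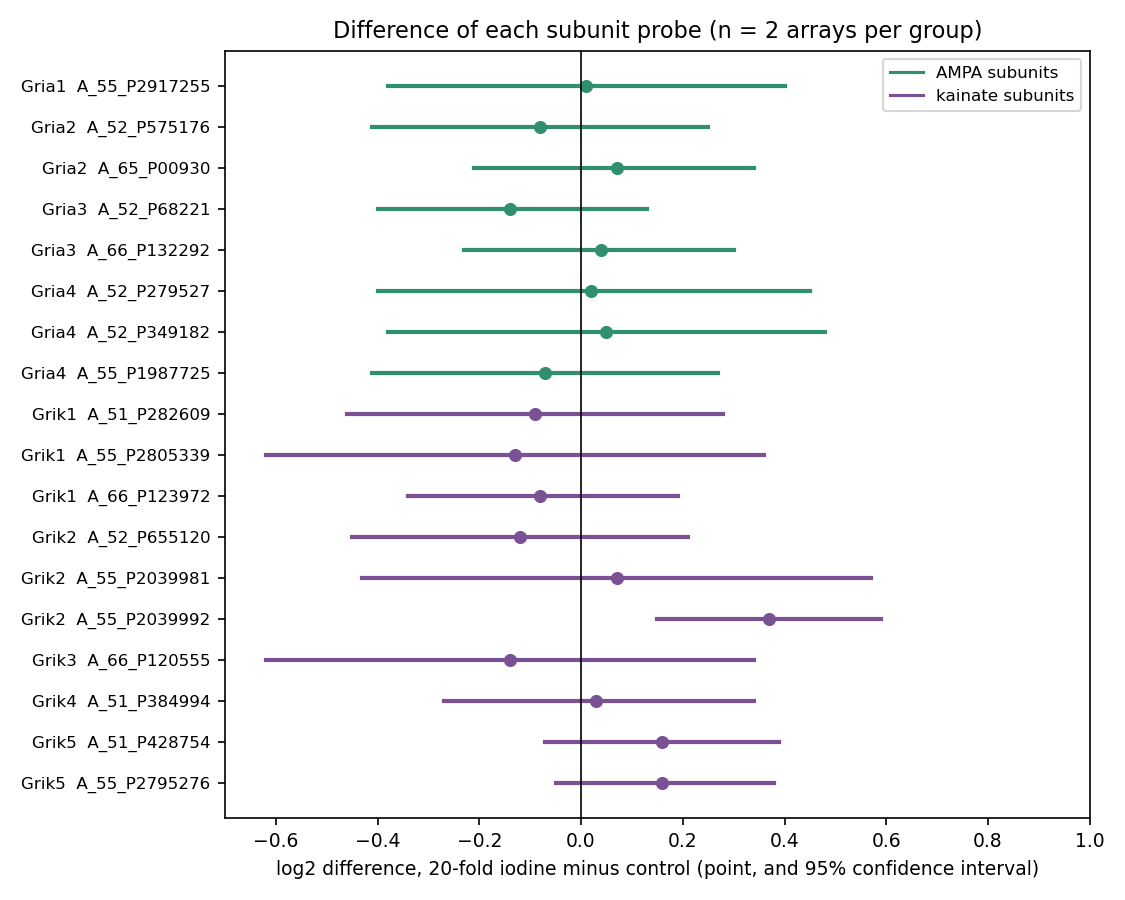
Log2 difference (20-fold iodine minus control, horizontal axis) of each of the 18 subunit probes, with points for the estimate and lines for the 95% confidence interval of the limma fit (n = 2 arrays per group). Every interval includes 0 except that of the Grik2 probe A_55_P2039992, which runs from 0.15 to 0.59.

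Among the AMPA subunits, the difference was small in either direction. The 8 probes had a median difference of 0.02 and ranged from -0.14 to 0.07. None had an unadjusted p under 0.05, and their confidence half-widths were 0.26 to 0.43 on the log2 scale.

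Gria1, whose product GluA1 is the subunit most tied to activity-dependent insertion at synapses, was read by 1 probe. Its log2 signals were 13.42 and 13.09 in 20-fold iodine and 13.19 and 13.30 in control. Both control values lay between the 20-fold iodine values, and the difference was 0.01 ± 0.14 (SE), with a 95% confidence interval of -0.38 to 0.40, that is a fold change between 0.770 and 1.32.

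Gria2 encodes GluA2, the subunit whose edited form keeps calcium out of the channel. Its probe A_52_P575176 had 12.33 and 12.08 in 20-fold iodine and 12.23 and 12.34 in control, a difference of -0.08 ± 0.12. The other probe, A_65_P00930, designed on another transcript of the gene, had 9.02 and 8.83 in 20-fold iodine and 8.85 and 8.85 in control, a difference of 0.07 ± 0.10. The groups overlapped in both probes, which differed from each other in sign. Arrays do not read RNA editing, so the edited share was not measured.

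Gria3 encodes GluA3, which in pyramidal cells joins mainly with GluA2. The probe A_52_P68221 had 9.35 and 9.18 in 20-fold iodine and 9.43 and 9.39 in control. Both 20-fold iodine arrays were lower, by a gap of 0.04, and the difference was -0.14 ± 0.10 (limma adjusted p = 0.717), and -0.05 without 20-fold iodine replicate 3 or -0.22 without its replicate 2. The probe A_66_P132292 had 8.61 and 8.49 in 20-fold iodine and 8.45 and 8.57 in control, where the groups overlapped, with a difference of 0.04 ± 0.10.

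Gria4 was read by 3 probes that moved together from array to array but not with the group. The probe A_55_P1987725 had 8.44 and 8.65 in 20-fold iodine and 8.71 and 8.52 in control, A_52_P279527 had 6.57 and 6.88 in 20-fold iodine and 6.83 and 6.58 in control, and A_52_P349182 had 6.26 and 6.59 in 20-fold iodine and 6.50 and 6.26 in control. In all 3, replicate 3 of 20-fold iodine was above replicate 2, and replicate 3 of control was below replicate 2. The differences were -0.07 ± 0.12, 0.02 ± 0.16 and 0.05 ± 0.16. Averaged over the 3 probes, Gria4 stood 0.14 below its 4-array mean in 20-fold iodine replicate 2, 0.14 above it in replicate 3, 0.11 above it in control replicate 2 and 0.11 below it in replicate 3.

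**Figure D2:**
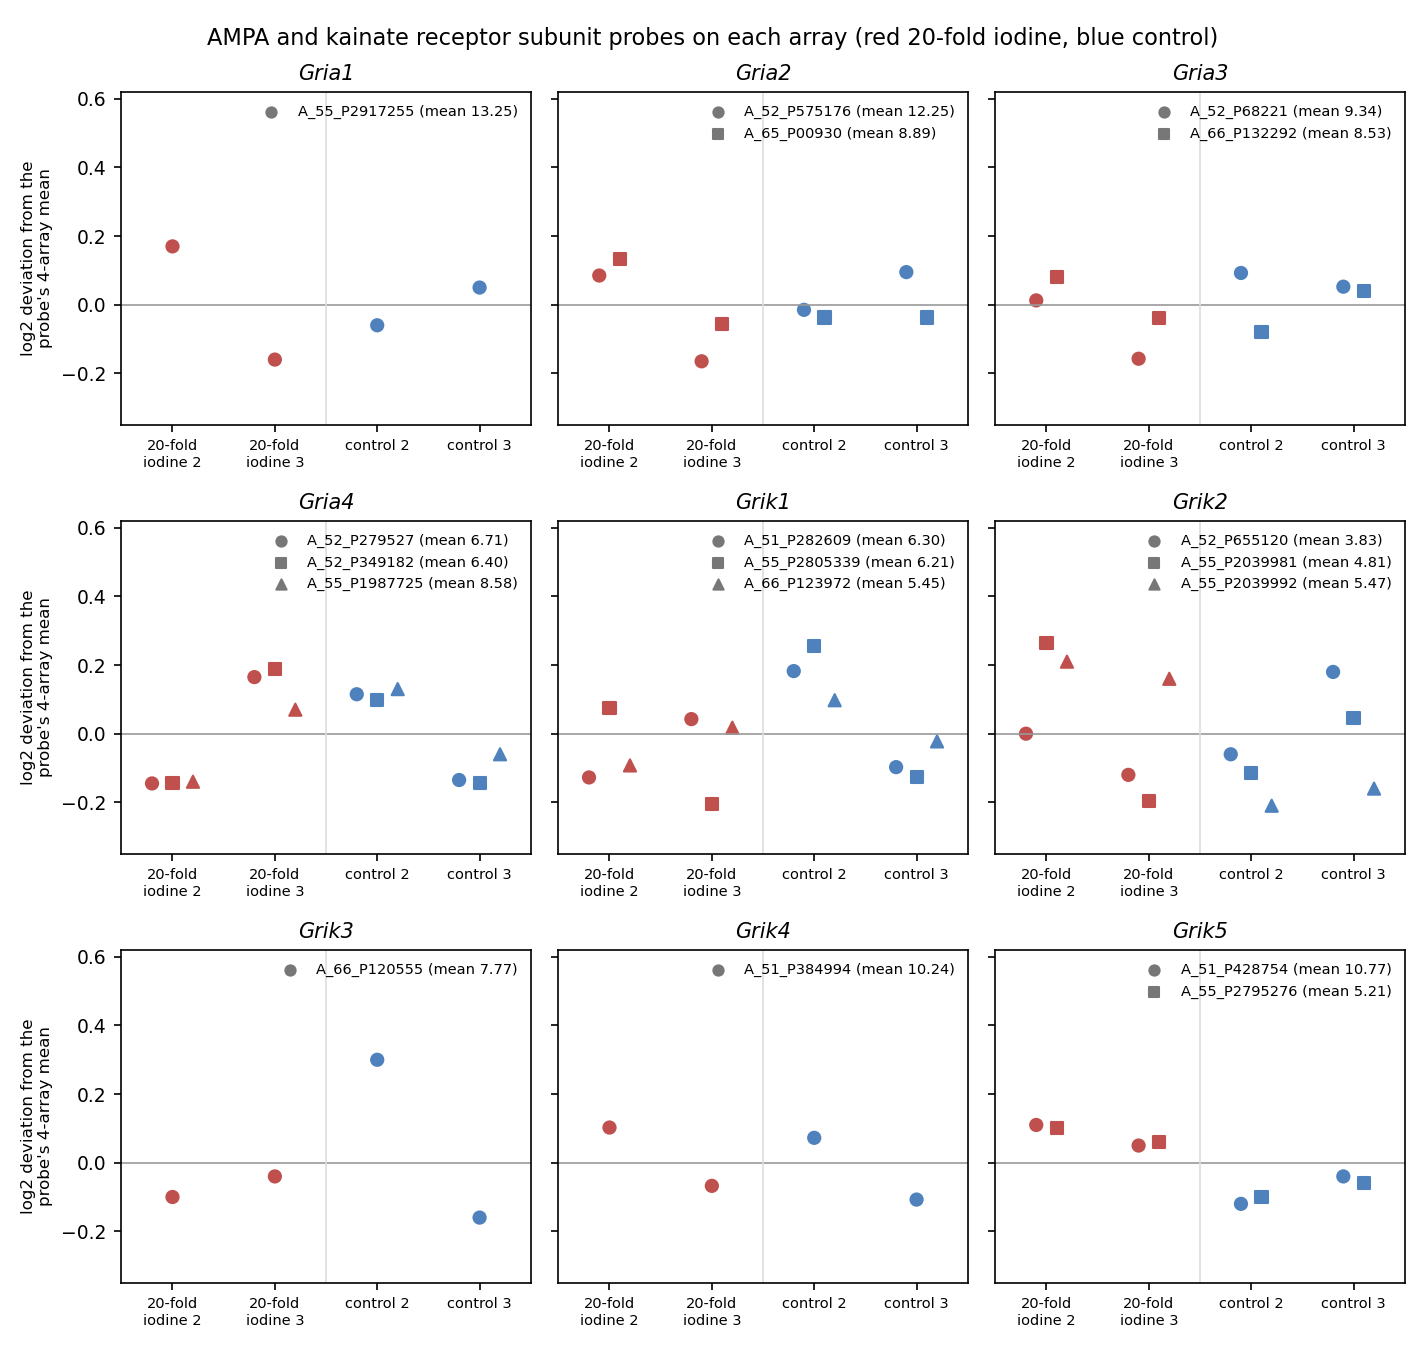
Log2 deviation of each probe from its own 4-array mean (vertical axis, shared by all panels) on the 20-fold iodine arrays (red, left) and the control arrays (blue, right), 1 panel per gene and 1 marker shape per probe; the probe's 4-array mean log2 signal is in brackets. The 3 Gria4 probes shift together within each group, both Grik5 probes are higher on both 20-fold iodine arrays, and of the 3 Grik2 probes A_55_P2039992 is the one that is.

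The kainate subunits had a wider spread, with differences of -0.14 to 0.37 over 10 probes, 5 higher and 5 lower, and a median of -0.02. The probe with the smallest unadjusted p of all members was among them, in Grik2.

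Grik1 encodes GluK1, a subunit known in hippocampus mostly from interneurons. The probe A_51_P282609 had 6.17 and 6.34 in 20-fold iodine and 6.48 and 6.20 in control, A_55_P2805339 had 6.29 and 6.01 in 20-fold iodine and 6.47 and 6.09 in control, and A_66_P123972 had 5.36 and 5.47 in 20-fold iodine and 5.55 and 5.43 in control. Control replicate 2 was the highest array in all 3 probes, and the groups overlapped in each. The differences were -0.09 ± 0.14, -0.13 ± 0.18 and -0.08 ± 0.10. Without control replicate 2 they were 0.05, 0.06 and -0.01. With normexp background correction they were -0.08, -0.02 and -0.01. The probe A_66_P123972 was dim, with processed signals of 40.6 to 49.2.

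Grik3, which encodes the low-affinity subunit GluK3, showed the same array standing apart. Its 1 probe had 7.67 and 7.73 in 20-fold iodine and 8.07 and 7.61 in control. The difference was -0.14 ± 0.18 with control replicate 2 and 0.09 without it.

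Grik2 encodes GluK2, a main channel-forming subunit of mossy fibre kainate receptors. The probe A_55_P2039992 had 5.68 and 5.63 in 20-fold iodine, against 5.26 and 5.31 in control. Both 20-fold iodine arrays were above both control arrays by a gap of 0.32, and the SD was 0.03 in each group. The difference was 0.37 ± 0.08 (SE), a fold change of 1.29 with a 95% confidence interval of 1.11 to 1.50, at a limma unadjusted p of 0.00872 and an adjusted p of 0.518. An unadjusted p this small or smaller was found for 1.66% of all probes. The 2 other Grik2 probes, both designed on another transcript, did not share it. A_55_P2039981 had 5.08 and 4.62 in 20-fold iodine and 4.70 and 4.86 in control (0.07 ± 0.18), and A_52_P655120 had 3.83 and 3.71 in 20-fold iodine and 3.77 and 4.01 in control (-0.12 ± 0.12). The groups overlapped in both.

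All 3 Grik2 probes were dim. Their processed signals ran from 12.4 to 50.6, where the 75th percentile of an array was 144.3 and 149.7 in 20-fold iodine and 154.2 and 158.8 in control. With normexp background correction of the median spot signals (offset 50), the A_55_P2039992 difference was 0.16 (limma adjusted p = 0.393). With quantile normalization added it was 0.12 (limma adjusted p = 0.473). The A_55_P2039981 difference was 0.10 with normexp and 0.05 with quantile normalization added. That of A_52_P655120 was 0.03 and -0.03, so with normexp alone all 3 Grik2 probes were higher in 20-fold iodine.

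Grik4 encodes GluK4, a high-affinity subunit concentrated in CA3 pyramidal cells. Its probe had 10.34 and 10.17 in 20-fold iodine and 10.31 and 10.13 in control. The 2 groups overlapped, each spanning about as much as the other (SD of 0.12 in both), and the difference was 0.03 ± 0.11, a fold change of 1.02 with a 95% confidence interval of 0.828 to 1.27.

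Grik5 encodes GluK5, the broadly expressed high-affinity partner subunit. The probe A_51_P428754 had 10.88 and 10.82 in 20-fold iodine and 10.65 and 10.73 in control, and A_55_P2795276 had 5.31 and 5.27 in 20-fold iodine and 5.11 and 5.15 in control. In both probes the 20-fold iodine arrays were above the control arrays after scaling, by gaps of 0.08 and 0.12. Before scaling, the processed signals of A_51_P428754 were 1860 and 1710 in 20-fold iodine and 1680 and 1730 in control, which overlap. A_55_P2795276 was dim, with 39.3 and 36.7 in 20-fold iodine and 36.1 and 36.1 in control. Its difference was 0.08 with normexp background correction and 0.04 with quantile normalization added. The differences were 0.16 ± 0.09 and 0.16 ± 0.08, with limma adjusted p of 0.652 and 0.627. Both probes read the same transcript, so they are 2 readings of the same RNA samples and not independent evidence.

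A promoter window of Grik2 and one of Grik5 are shown because these are the genes with a probe higher on both 20-fold iodine arrays. They are the 250 bases before a transcript start in RefSeq (build GRCm38.p6), read 5′ to 3′ on the gene's strand. GC boxes (GGGCGG on either strand, as bound by Sp1) are in capitals. Each window lies inside the annotated span of its gene, so it is not the region before the gene's outermost start. The transcript of each window is not given here, so the Grik2 window may not be that of the transcript A_55_P2039992 was designed on.
Grik2, chr10:49788755-49789004, minus strand: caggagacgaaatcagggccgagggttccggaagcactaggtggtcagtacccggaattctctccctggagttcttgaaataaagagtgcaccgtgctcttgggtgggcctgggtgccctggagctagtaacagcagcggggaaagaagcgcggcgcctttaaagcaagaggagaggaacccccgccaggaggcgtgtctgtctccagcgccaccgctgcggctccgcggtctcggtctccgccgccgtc
Grik5, chr7:25072370-25072619, minus strand: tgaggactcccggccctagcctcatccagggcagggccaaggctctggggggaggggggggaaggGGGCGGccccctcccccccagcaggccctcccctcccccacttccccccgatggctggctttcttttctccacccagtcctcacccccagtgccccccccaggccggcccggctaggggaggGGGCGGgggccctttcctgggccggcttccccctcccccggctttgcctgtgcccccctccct
The Grik5 window held 2 GC boxes and the Grik2 window 0, where 32.7% of all 32851 windows in the table held at least 1. The half-site AGGTCA, bound by thyroid hormone receptors and other nuclear receptors, was searched on both strands and was in 0 of the windows of the 6 member genes in the table (Gria2, Gria4, Grik2, Grik3, Grik4 and Grik5), against 14.0% of all windows. GC content was 62.8% in the Grik2 window and 75.2% in the Grik5 window, and the median of all windows was 52.4%. These are letters in a window and no measurement of binding.

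Probes of Grik2, Gria2, Gria3 and Gria4 differed in sign. The balance of a gene's probes was tested with limma's diffSplice, which sets each probe against the other probes of its gene. It treats probes of a gene as independent although they share arrays. Over 13899 probes of 6092 genes, 0 of 15 member probes passed, against 0.00719% of all (1 probe), and 0 of 15 had an unadjusted p under 0.05, against 9.86%. For Grik2 A_55_P2039992 the difference exceeded that of the gene's other probes by 0.39 (diffSplice adjusted p = 0.514). On each array, the log2 signal of A_52_P655120 minus that of A_55_P2039992 was -1.85 and -1.93 in 20-fold iodine and -1.50 and -1.30 in control. This shift of -0.49 was the largest of the Grik2 pairs. It was -0.30 for A_55_P2039981 minus A_55_P2039992 and -0.19 for A_52_P655120 minus A_55_P2039981. For Gria3 the log2 ratio of A_52_P68221 to A_66_P132292 was 0.75 and 0.70 in 20-fold iodine and 0.98 and 0.82 in control, a shift of -0.18 (adjusted p = 0.761). For Gria2 the ratio of A_52_P575176 to A_65_P00930 was 3.32 and 3.25 in 20-fold iodine and 3.38 and 3.48 in control, a shift of -0.15 (adjusted p = 0.863). The Gria4 ratio of A_52_P349182 to A_55_P1987725 was -2.17 and -2.06 in 20-fold iodine and -2.21 and -2.26 in control. The shift was 0.12 for this pair and 0.10 and -0.02 for the other pairs of Gria4 probes. These pairs are formed from the same probes, so they are not separate readings. The smallest diffSplice adjusted p of the Gria4 probes was 0.935. The Grik5 ratio was 5.56 and 5.55 in 20-fold iodine and 5.54 and 5.58 in control.

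Several subunits varied within a group by more than their group means differed. Gria1 was 0.34 lower in replicate 3 than in replicate 2 of 20-fold iodine, the mean of the Gria2 probes 0.22 lower and that of the Gria3 probes 0.15 lower, and Grik2 was 0.21 lower. Grik4 was 0.17 and Grik5 0.06 lower, while Gria4 was 0.28 and Grik3 0.06 higher. Replicate 3 of control was below replicate 2 by 0.46 for Grik3, 0.26 for Grik1, 0.23 for Gria4 and 0.17 for Grik4. For the other genes it was above replicate 2, by 0.04 to 0.15. On the 20-fold iodine arrays the markers of hippocampal excitatory neurons had median deviations of 0.16 and -0.08, against -0.12 and 0.02 on control arrays. Their summed signal was 14.66 and 14.46 on the log2 scale in 20-fold iodine and 14.50 and 14.77 in control. All 10 were detected and 0 passed the adjusted threshold. The 7 interneuron markers, all detected, had median deviations of -0.04 and -0.06 in 20-fold iodine and 0.14 and -0.01 in control, highest on control replicate 2 like Grik1 and Grik3. Their summed signal was 14.65 and 14.54 in 20-fold iodine and 14.74 and 14.66 in control. The 4 choroid plexus markers had median deviations of -1.27 and 0.81 in 20-fold iodine and 0.26 and 0.12 in control. They were lowest on 20-fold iodine replicate 2 and highest on its replicate 3. The mean of the Gria4 probes was too, but the Gria4 probe A_55_P1987725 was highest on control replicate 2. The summed signal of the choroid plexus markers was 12.96 and 15.30 in 20-fold iodine and 14.57 and 14.39 in control. The 5 thalamus and habenula markers had -0.11 and 0.56 in 20-fold iodine and -0.26 and -0.09 in control, with summed signals of 9.68 and 10.33 in 20-fold iodine and 9.62 and 9.69 in control.

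The medians of the oligodendrocyte and endothelium lists were higher on both 20-fold iodine arrays, as was the case for Grik5 and Grik2 A_55_P2039992. The interneuron list did not overlap between the groups either, but its medians were lower in 20-fold iodine, where 6 of its 7 markers were lower. The 5 oligodendrocyte markers had median deviations of 0.08 and 0.04 in 20-fold iodine and -0.04 and -0.08 in control, and summed signals of 14.66 and 14.61 in 20-fold iodine and 14.58 and 14.57 in control. The 4 endothelium markers had 0.05 and 0.15 in 20-fold iodine and -0.14 and -0.01 in control, and summed signals of 10.94 and 11.05 in 20-fold iodine and 10.58 and 10.83 in control. All of these thalamic, oligodendrocyte and endothelial markers were detected, and 0 passed the adjusted threshold. Slc17a7, the vesicular glutamate transporter gene of excitatory neurons, had 10.85 and 10.72 in 20-fold iodine and 10.38 and 10.38 in control. Its difference was 0.40 without overlap (limma adjusted p = 0.518). It is 1 of the 10 hippocampal excitatory neuron markers, of which 4 were higher and 6 lower, with a median difference of -0.02. The groups did not overlap in 3 of these 10, against 39.9% of all genes. The part of these cell types in the subunits' values was not tested.

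**Figure D3:**
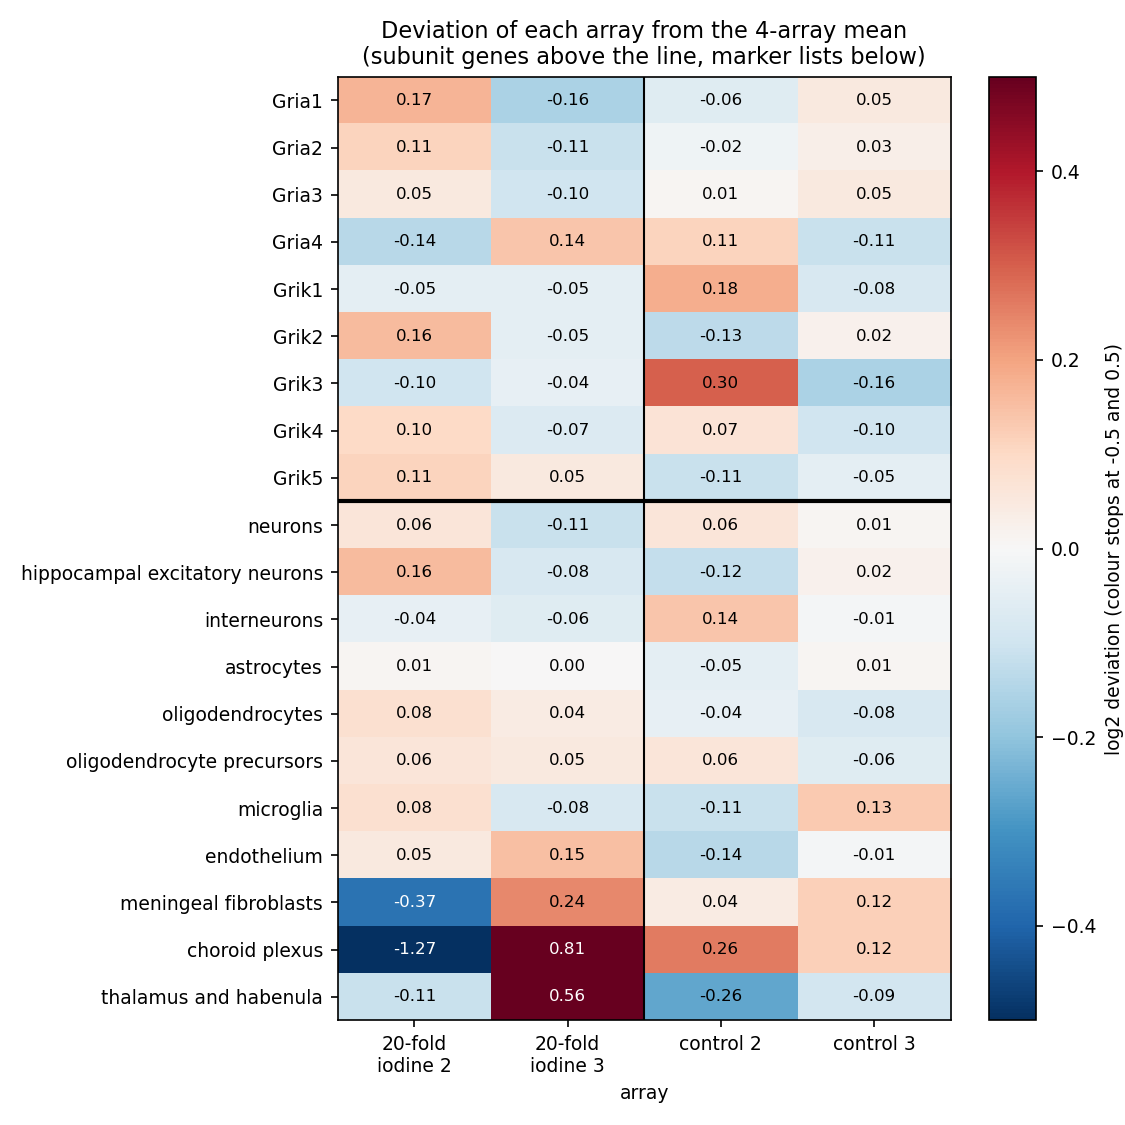
Log2 deviation of each array (columns, 20-fold iodine left of the line and control right of it) from the 4-array mean, for the mean of each subunit gene's probes (upper rows) and the median of each cell type marker list (lower rows). Grik3 (0.30), Grik1 (0.18) and the interneuron list (0.14) are highest on control replicate 2, and the choroid plexus list spans -1.27 to 0.81 within the 20-fold iodine group.

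Partner genes of the receptors were taken from 4 lists, with the brightest kept probe of each gene. Of 45 genes listed, 44 were tested, and 0 passed the adjusted threshold, against 0 of 16794 genes (0%). Unadjusted p under 0.05 was found in 3 of 44, against 6.37% of all genes, and the groups did not overlap in 12 of 44 (27.3%), against 39.9% of all genes.

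The AMPA receptor auxiliary and assembly genes had a median difference of 0.10 over 21 genes, 18 of them higher and 3 lower in 20-fold iodine, where 45.7% of all genes were higher and the median of all was -0.01. By limma 0 of 21 passed the adjusted threshold (smallest adjusted p = 0.535). The count of higher genes was 16 with normexp and with median scaling, 19 with quantile normalization, and 14 without 20-fold iodine replicate 2, where the list's median was 0.06. The share of all genes that were higher was 51.3% with normexp, 38.2% with median scaling, 45.8% with quantile normalization and 44.3% without that array. Syndig1, whose membrane protein promotes excitatory synapse development, had 5.20 and 4.99 in 20-fold iodine and 4.77 and 4.75 in control (0.34 ± 0.11), but its other kept probe differed by -0.20. The transmembrane AMPA receptor regulatory protein gene Cacng7 had 5.50 and 5.53 in 20-fold iodine and 5.29 and 5.27 in control (0.23 ± 0.08, adjusted p = 0.540). These probes of Syndig1 and Cacng7 were dim. With normexp their differences were 0.18 and 0.13, and with quantile normalization added 0.13 and 0.09. Cacng2, which encodes stargazin, was on the lower side, with 8.86 and 8.62 in 20-fold iodine and 8.96 and 8.96 in control (-0.22 ± 0.11, adjusted p = 0.644). Its difference was -0.10 without 20-fold iodine replicate 3 and -0.34 without replicate 2. The fatty acyltransferase gene Porcn differed by -0.05 ± 0.11 and the third gene on the lower side, Abhd6, by 0.00 ± 0.09. Abhd6 was chosen after its value was seen.

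The kainate receptor auxiliary and secreted organiser genes, 1 higher and 3 lower of 4, had a median of -0.11. Neto1, an auxiliary subunit of kainate receptors, had 11.00 and 10.69 in 20-fold iodine and 10.98 and 11.06 in control (-0.17 ± 0.13), with another probe at 0.01. Without 20-fold iodine replicate 3 its difference was -0.02, and without replicate 2 it was -0.33. Neto2 had 7.07 and 6.95 in 20-fold iodine and 7.16 and 6.96 in control (-0.05 ± 0.11), while its other probes differed by 0.46 and 0.47. The mossy fibre organiser genes C1ql2 and C1ql3, whose secreted proteins bind GluK2- and GluK4-containing receptors, differed by 0.21 ± 0.25 and -0.17 ± 0.09, with the other C1ql3 probe at 0.19. The smallest adjusted p of the list was 0.655.

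Trafficking and anchoring genes had a median of 0.08 over 16 of 17 listed genes, 10 higher and 6 lower, with 0 past the adjusted threshold. The median was 0.04 without 20-fold iodine replicate 2. Nptx1, a secreted pentraxin that clusters AMPA receptors, had 6.30 and 6.24 in 20-fold iodine and 5.71 and 5.98 in control (0.42 ± 0.12, adjusted p = 0.532). Snx27, a sorting nexin that returns receptors to the membrane, differed by 0.20 ± 0.09 and Nsf, the fusion ATPase that binds GluA2, by -0.14 ± 0.09, while the other 2 Nsf probes differed by 0.03 and 0.10. Dlg4, which encodes the scaffold PSD-95, had 9.45 and 9.31 in 20-fold iodine and 9.21 and 10.20 in control. Its difference of -0.32 ± 0.35 rests on control replicate 3 and was 0.18 without it.

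Of the RNA editing genes, Adarb1, which encodes the enzyme that edits Gria2 transcripts, had 11.24 and 11.43 in 20-fold iodine and 11.27 and 11.16 in control (0.12 ± 0.11). Adar differed by 0.04 ± 0.08 and Adarb2, whose product has no known editing activity, by -0.13 ± 0.13, while their other kept probes differed by 0.24 and 0.43.

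**Figure D4:**
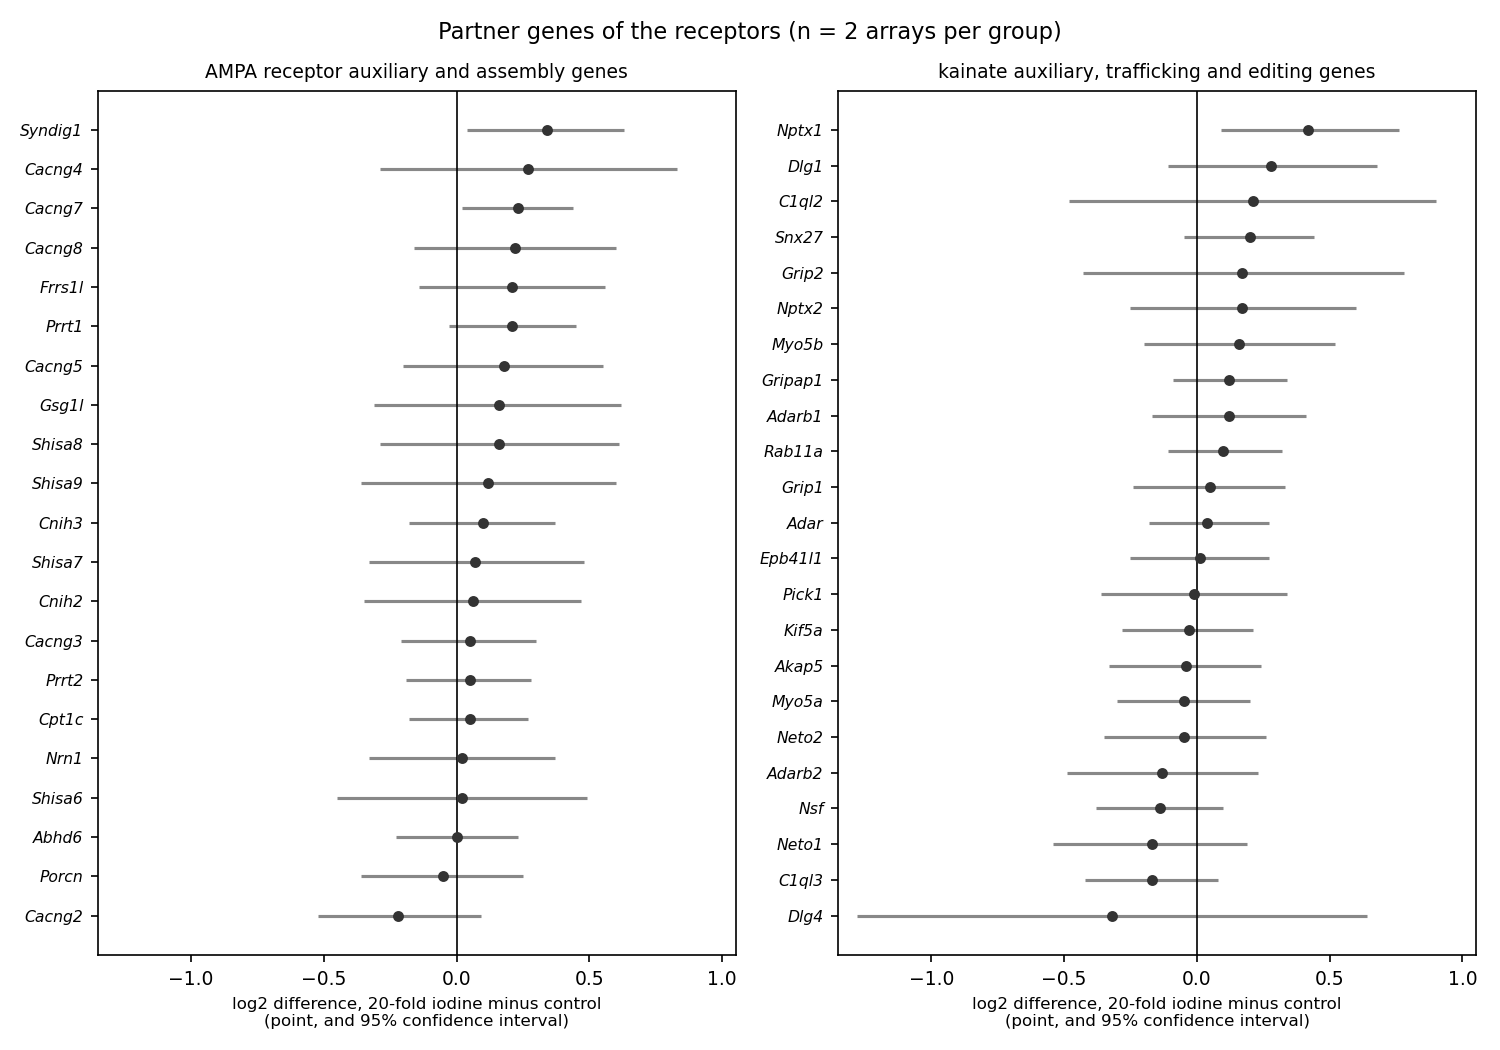
Log2 difference (20-fold iodine minus control, horizontal axis) of the 44 partner genes tested, with points for the estimate and lines for the 95% confidence interval (n = 2 arrays per group); AMPA receptor auxiliary and assembly genes are on the left and the other 3 lists on the right. Most left-hand points lie above 0, and the intervals of Syndig1, Cacng7 and Nptx1 do not include 0, although no gene passed the adjusted threshold.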

How the data were processed

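The authors deposited the scanner output of 4 Agilent 1-colour (Cy3) arrays, written by Agilent Feature Extraction, version 12.1.1.1. Analyses started from the deposited processed intensity. Per the file headers, its background had been subtracted and spatial trends removed within each array, with no normalization between arrays. The deposited median spot and background intensity columns served the normexp alternative, since the mean signal that the plan named was not used here. The deposited flags, an other measure of 0 or 1, marked signal well above background, saturation (0 spots) and outlier spots (47 to 70 per array), which were left out.

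Of 62976 spots per array, 3671 controls were removed and spots of a probe averaged, giving 56605 probes. Accessions in a RefSeq table of assembly GRCm38.p6 named 32994 probes of 22911 genes. The array header names an older build, so no gene coordinates are given beyond the promoter windows of that source. The 75th percentile was set equal across arrays, and the 38231 probes well above background on at least 2 arrays were kept, whatever the group.

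20-fold iodine and control (n = 2 each) were compared with limma 3.58.1 (lmFit, eBayes and diffSplice, two-sided) in R 4.3.3 and Benjamini-Hochberg adjustment over all kept probes. Figures used matplotlib 3.10.9 in Python 3.11.15. The code was tested on simulated data. With 2 arrays per group, the smallest exact two-sided permutation p is 0.333, so no such test was run, and the number of arrays limits the precision.

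The members and the partner and marker lists were chosen with earlier results of these data known. Named were all member probes, and of each partner list the 2 higher and 2 lower genes with the smallest unadjusted p, or all genes of lists of 4 or fewer. The diffSplice test was added after seeing the data. A further partner list is not reported here.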

Additional observations from a re-analysis of the deposited data

How the results depend on the processing

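No subunit probe and no partner gene named by the rule passed the adjusted threshold under any of the 13 alternatives. Over all probes limma called 21 with normexp (of 4200 with an unadjusted p under 0.05) and 53 with an intensity trend and robust variances (of 3573), and 0 under the others; none of the called probes was a member or such a partner. The Grik2 probe A_55_P2039992 stayed higher in 20-fold iodine under all 13, between 0.12 and 0.39 (limma adjusted p from 0.393 to 0.720), and so did both Grik5 probes wherever tested, between 0.04 and 0.20. Where an array is left out, the lone one remaining in that group takes its spread from the other group.

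The members' median was -0.07 with 1 brightest probe a gene, and -0.04 to 0.06 without single arrays. The median of the kainate auxiliary list was -0.17 to 0.00 without single arrays. That of the editing genes was 0.02 with normexp and with median scaling, 0.06 with quantile normalization and with both, and 0.00 to 0.06 without single arrays. That of the trafficking list was 0.04 to 0.11 without single arrays, and that of the AMPA auxiliary list 0.06 to 0.13. For each of these the cause was not tested. The normexp setting also started from the median spot signals in place of the processed signal.

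Signs changed in small differences. With median scaling Gria1 was at -0.01 and Gria4 A_52_P279527 at 0.00, and with normexp Grik2 A_52_P655120 was at 0.03. Without single arrays the ranges that crossed 0 were, for the AMPA probes, -0.16 to 0.18 (Gria1), -0.21 to 0.05 (Gria2 A_52_P575176), -0.03 to 0.16 (Gria2 A_65_P00930), -0.02 to 0.10 (Gria3 A_66_P132292), -0.13 to 0.18 (Gria4 A_52_P279527), -0.12 to 0.21 (Gria4 A_52_P349182) and -0.18 to 0.03 (Gria4 A_55_P1987725). For the kainate probes they were -0.23 to 0.05 (Grik1 A_51_P282609), -0.33 to 0.06 (Grik1 A_55_P2805339), -0.24 to 0.00 (Grik2 A_52_P655120), -0.16 to 0.30 (Grik2 A_55_P2039981), -0.37 to 0.09 (Grik3) and -0.05 to 0.12 (Grik4). For partners they were -0.17 to 0.06 (Porcn), -0.11 to 0.53 (C1ql2), -0.15 to 0.06 (Neto2), -0.29 to 0.03 (Adarb2), 0.00 to 0.09 (Adar) and -0.82 to 0.18 (Dlg4).

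With the replicate number as a block, the Grik2 probe A_55_P2039992 had 0.37 (limma adjusted p = 0.622) and 0 probes passed. Same-numbered replicates did not deviate together (r = -0.02 over 38231 probes). This sets the difference between the 20-fold iodine arrays against that between the control arrays. It cannot decide whether same-numbered samples were paired, which the labels do not state.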
